A study of Mus musculus with 16 samples.

Results

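The transcription machinery examined here comprised 91 of the 20665 RefSeq protein-coding genes on chromosomes 1 to 19, chosen by symbol: subunits of RNA polymerases I, II and III (Polr1, Polr2 and Polr3 genes), the general factors of polymerases II and III (Gtf2 and Gtf3 genes), the TATA-binding protein gene Tbp with the Taf genes, and the Mediator genes (Med). H3K27ac and H3K4me3 had been mapped in mouse embryos at the late 2-cell stage, 36 h after fertilization, with ULI-NChIP-seq. This assay digests native chromatin of few cells with micrococcal nuclease and sequences what the antibody pulls down. Control embryos had received water at the zygote stage, and the others had received mRNA encoding a mutant Hdac1 at that stage. Hdac1 encodes a histone deacetylase, which removes acetyl groups from histones. The labels do not name the mutation or the mouse strain. Both conditions share the injection itself, and the controls received no mRNA, so an effect of the mutant protein and an effect of any injected mRNA cannot be told apart. The 16 libraries formed 8 groups of 2, immunoprecipitation and input for each mark and condition, and each immunoprecipitation group is described by a single deposited peak list. The labels do not say that the libraries of a group came from separate pools of embryos.

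RNA polymerase I transcribes ribosomal RNA, polymerase II transcribes messenger RNA, and polymerase III transcribes transfer RNA, 5S RNA and other small RNAs. General transcription factors bring each polymerase to its start sites. Among them TFIID, which holds Tbp and the Taf proteins, binds the core promoter, and Mediator links sequence-specific activators to polymerase II. In the mouse, major activation of the embryonic genome takes place at the 2-cell stage. H3K27ac, an acetylation, accompanies active enhancers as well as promoters. H3K4me3, a methylation, lies mainly at promoters.

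The lists held 77349 H3K27ac peaks in water embryos, 122487 H3K27ac peaks in mutant embryos, 86798 H3K4me3 peaks in water embryos and 85780 H3K4me3 peaks in mutant embryos. They covered between 245.9 and 279.4 Mb. The lists give positions only, so the depth of the libraries is unknown, no peak can be ranked by strength, and no replicate error or test between the conditions can be given. Every difference below is a difference between 2 deposited lists. Peaks cannot show which cells were present, but all 13 listed genes of the late 2-cell embryo had an H3K27ac peak within 2 kb of a gene end in each condition, and 10 and 12 of them had H3K4me3 in water and mutant embryos. Of 8 cumulus cell genes, 3 and 5 had H3K27ac and 6 and 7 had H3K4me3 in water and mutant embryos. Of 4 sperm genes, 3 had H3K27ac and 2 had H3K4me3 in each condition. Over all protein-coding genes the shares in water and mutant embryos were 56.3% and 59.3% for H3K27ac. For H3K4me3 they were 76.4% and 75.1%. The part of other cells in the results was not tested.

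Nearly all genes of the machinery were marked in both conditions. A gene was counted as marked when a peak reached within 2 kb of either end. In water embryos 91 of 91 genes had H3K4me3 (95% exact Clopper-Pearson interval 96.0 to 100%), against 76.4% of all protein-coding genes. In mutant embryos 89 of 91 had it (97.8%, interval 92.3 to 99.7), against 75.1% of all genes. H3K27ac marked 88 of 91 genes in water embryos (96.7%, 90.7 to 99.3) and 83 of 91 in mutant embryos (91.2%, 83.4 to 96.1), against 56.3% and 59.3% of all genes. These intervals cover counting error only. Both marks were present at 88 genes in water and 81 genes in mutant embryos, where the shares over all genes were 52.4% and 53.1%. No gene lacked both marks in either condition.

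Among the 88 genes with H3K27ac in water embryos, 8 had no mutant peak at a gene end (9.09%, interval 4.01 to 17.1), compared with 22.6% of all genes with water H3K27ac. These were Tbp, Taf15, Gtf2b, Polr1b, Polr2c, Polr2i, Med17 and Med28. The 3 genes without water H3K27ac, Taf4, Med4 and Med30, all had a mutant peak, and over all genes this gain occurred at 35.9%. The nearest mutant peak lay not far beyond the window at most of the 8 genes. It was 2034 bp from a gene end at Med17, 2395 bp at Med28, 3028 bp at Polr2i, 3037 bp at Polr1b, 4033 bp at Gtf2b, 4087 bp at Taf15, 4148 bp at Tbp and 8842 bp at Polr2c. With windows of 5 kb, 1 of the 91 genes was marked in water embryos alone. At 7 of the 8 genes a mutant peak was thus present within 5 kb.

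The covered length showed a larger difference between the conditions than the presence of a peak. H3K27ac peaks covered 62.8% of the gene-end windows of the 91 genes in water embryos and 42.2% in mutant embryos, a ratio of 0.672. Over all genes, 27% and 23.3% of the windows were covered, a ratio of 0.863. Since nearly all 91 genes had water H3K27ac, the closer comparison is with all genes that had it, where 46.8% and 34.2% were covered, a ratio of 0.732. For the 88 marked genes of the machinery that ratio was 0.665. Among genes with H3K27ac in both lists, the ratio was 0.722 for 80 genes of the machinery and 0.852 over all. Coverage was smaller in mutant embryos at 66 of 91 genes (72.5%), larger at 24 (26.4%) and equal at 1. Over all genes these shares were 37.9% smaller and 32.7% larger, and among genes with water H3K27ac 67.4% had less in the mutant list. The 66 genes all had water H3K27ac and make up 75% of the 88 such genes. Coverage by H3K4me3 differed little, with 62.6% in water and 60.9% in mutant embryos, a ratio of 0.973. It was smaller at 37 genes (40.7%), larger at 36 (39.6%) and equal at 18. Over all genes 32.7% had less H3K4me3 in mutant embryos and 43.2% had more, and 42.8% of genes with water H3K4me3 had less.

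**Figure D1:**
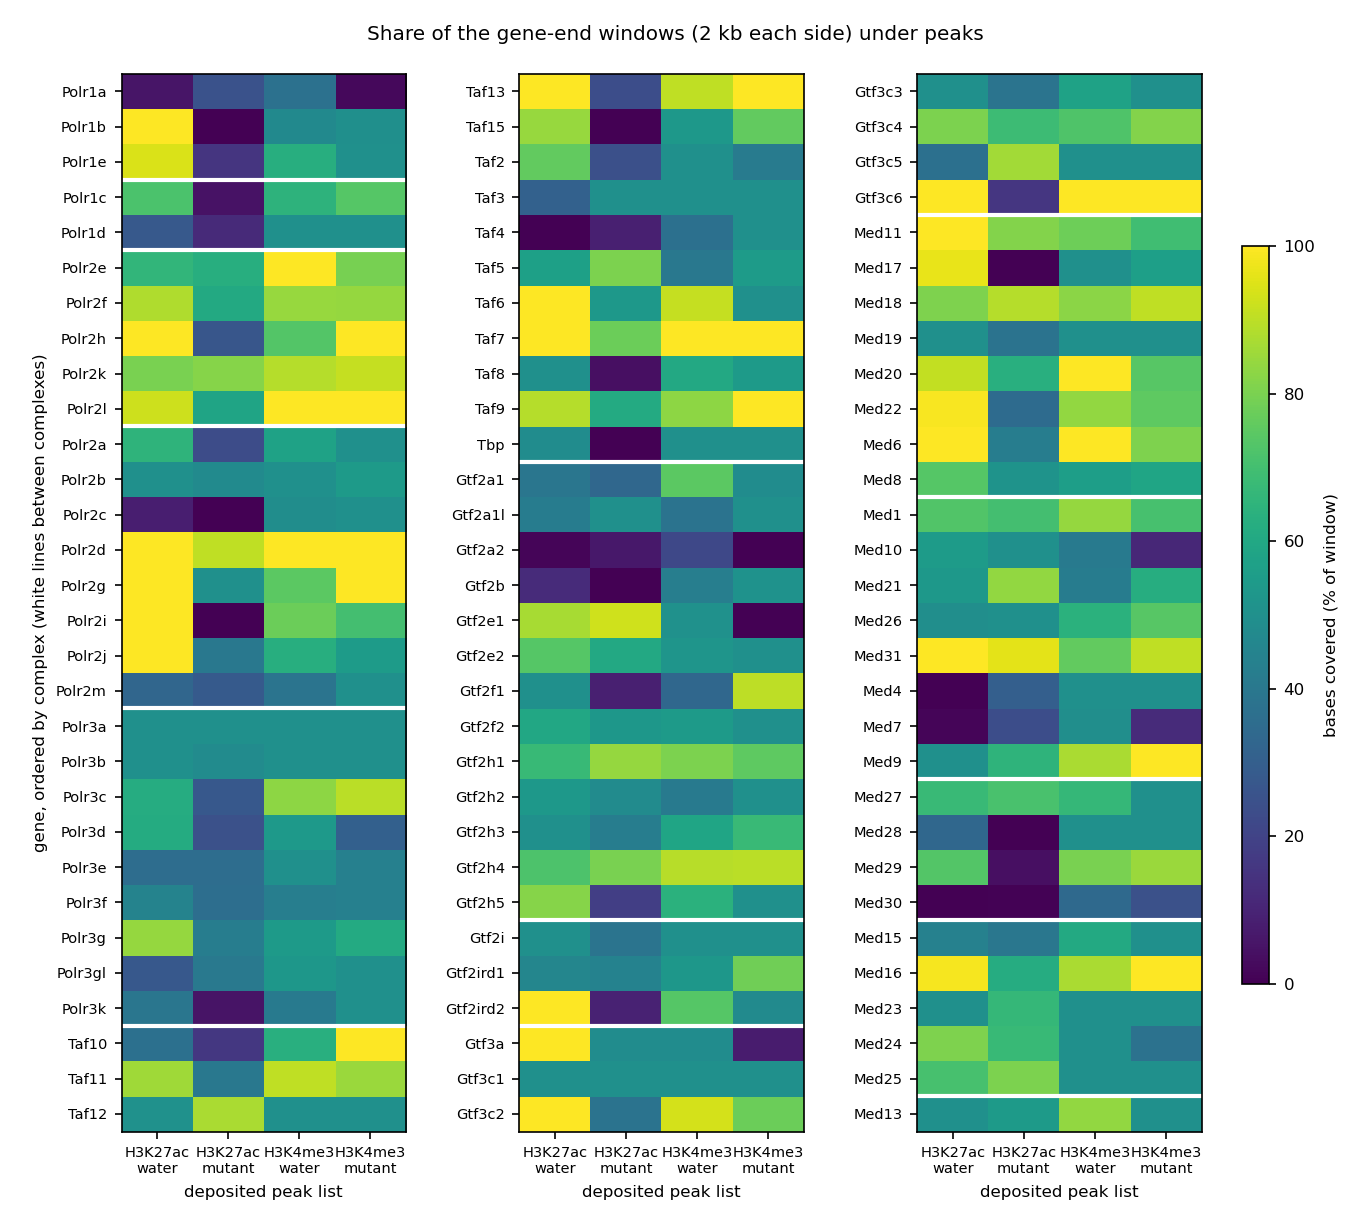
Share of the gene-end windows (2 kb on each side of both ends, in % of bases) under peaks, for 90 genes (rows, ordered by complex) in the 4 deposited lists (columns). The water H3K27ac column is brighter than the mutant H3K27ac column at 65 genes, whereas the H3K4me3 columns divide into 37 lower and 35 higher in mutant embryos.

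Peaks of H3K27ac at these genes were narrower in mutant embryos. The widest gene-end peak of a marked gene had a median width of 13000 bp in water embryos (quartiles 7485 and 18514 bp) and 5901 bp in mutant embryos (quartiles 3339 and 8929 bp). Over all marked genes the medians were 7669 and 4320 bp. Of the 80 genes with H3K27ac in both lists, 65 had the narrower peak in mutant embryos (81.2%) and 15 the wider one (18.8%), against 66.8% and 33.1% of all genes. Peaks wider than 10 kb were present at 54 of 88 marked genes in water (61.4%) and 11 of 83 in mutant embryos (13.3%). Over all marked genes these shares were 41.0% and 17.5%, so such wide peaks were fewer in the mutant list in general. For H3K4me3 the median width was 10240 bp in water and 9825 bp in mutant embryos. The mutant H3K4me3 peak was wider at 47 of 89 genes (52.8%) and narrower at 42 (47.2%). Over all genes with H3K4me3 in both lists, 63.1% were wider and 36.9% narrower in mutant embryos.

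The widest peaks of the 91 genes were as follows. At Taf12, a histone-fold subunit of TFIID on chromosome 4 (132274355 to 132293329), a water H3K27ac peak of 76396 bp (132295295 to 132371690) began within 2 kb of the gene's far end, and the widest mutant peak measured 18843 bp. Several mutant peaks lay along that region, and together they covered 88.6% of the water peak. At Gtf3c2, a subunit of the polymerase III factor TFIIIC on chromosome 5 (31156006 to 31180144), a water H3K27ac peak of 71138 bp spanned the whole gene, whereas the widest mutant peak measured 7040 bp. Only 15.6% of that water peak was covered by mutant peaks. The wide water domain was thus listed as separate mutant peaks near Taf12 and was mostly without mutant peaks at Gtf3c2. Gtf2f2, which encodes the small subunit of TFIIF, had H3K27ac peaks of 26033 bp in water and 16462 bp in mutant embryos. Among all 88 widest water H3K27ac peaks, the median share covered by mutant peaks was 59.8%. In the reverse direction, the median share of the widest mutant peaks covered by water peaks was 86.9% over 83 genes. Over all genes these medians were 44.5% and 46.7%.

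The widest H3K4me3 peaks lay at Med1 and Taf8. Med1 (chromosome 11, 98152154 to 98193313), a Mediator subunit that contacts nuclear receptors, had H3K4me3 peaks of 36211 bp in water and 36203 bp in mutant embryos, with 95.9% of the water peak covered in mutant embryos. Its widest H3K27ac peak measured 48078 bp in water, at the start, and 10335 bp in mutant embryos, at the far end. Mutant H3K27ac peaks covered 42.0% of that water peak. Both ends of Med1 had H3K27ac in each list, and its start base was covered in both. Taf8 (chromosome 17, 47483364 to 47502321), a TFIID subunit, had H3K4me3 peaks of 31120 and 55427 bp and H3K27ac peaks of 9319 and 1740 bp in water and mutant embryos. These 2 H3K4me3 peaks lie at different ends of Taf8, 47496435 to 47527554 in water and 47427165 to 47482591 in mutant embryos. Each end had H3K4me3 in both lists, and 91.9% of the water peak was covered by mutant peaks. The windows of Taf8 meet those of Ccnd3.

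**Figure D2:**
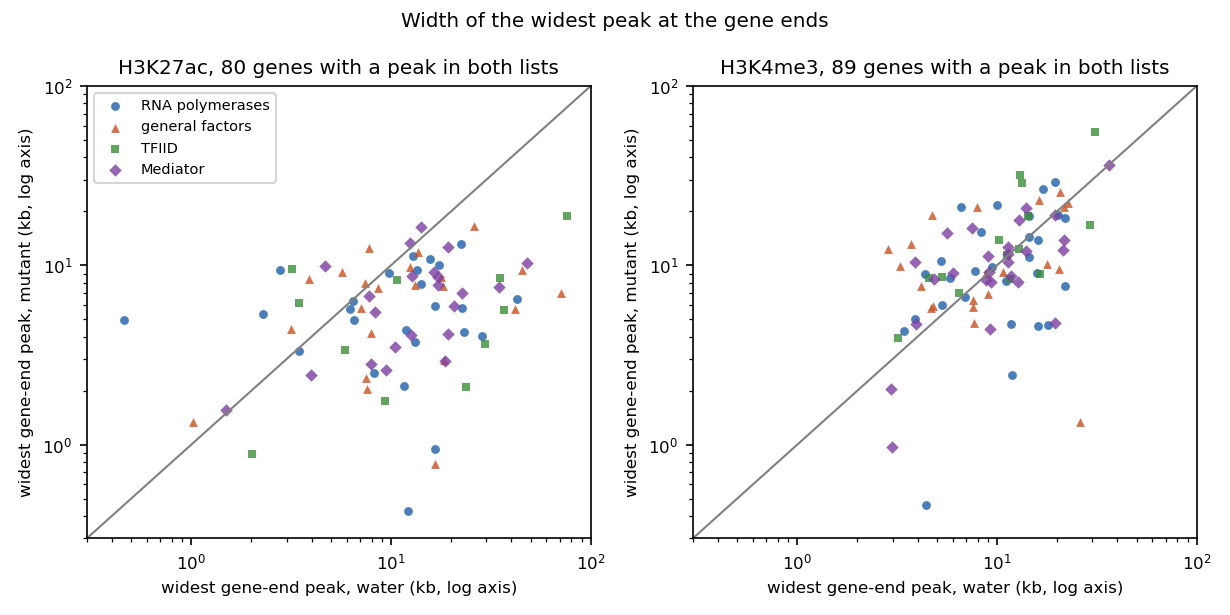
Width of the widest gene-end peak in water (x axis, kb, log scale) and mutant embryos (y axis, kb, log scale), 1 point for each gene with a peak in both lists. Points under the grey line are narrower in mutant embryos: 65 of 80 genes for H3K27ac and 42 of 89 for H3K4me3.

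H3K27ac covered fewer start sites in mutant embryos. A start was listed for 78 of the 91 genes, and the outermost listed start was used. In water embryos an H3K27ac peak covered the start base of 65 genes (83.3%), and in mutant embryos of 40 (51.3%). Over 16457 protein-coding genes with a listed start the shares were 36.4% and 28.8%. The start was covered in both lists at 35 genes, in water alone at 30, in mutant alone at 5 and in neither at 8. The 30 starts covered in water alone were 46.2% of those covered in water embryos. This is near the share over all genes, 49.5%, so starts covered in water embryos were without a mutant peak about as often here as elsewhere. H3K4me3 covered the start at 77 genes in water (98.7%) and 72 in mutant embryos (92.3%), with 67.9% and 64.5% over all genes. In mutant embryos it was absent from 5 of these starts, 6.49% of those covered in water embryos, where 10.9% was found over all genes. These were the starts of Polr1a, Gtf2a2, Gtf2e1, Gtf3a and Med7.

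The profile by distance shows the same change of shape. In water embryos the share of the 78 genes under H3K27ac was 53.8% at 10 kb upstream, reached 85.9% at 0.5 kb downstream of the start, and was 46.2% at 10 kb downstream. In mutant embryos it was 41.0%, 46.2% and 33.3% at these 3 positions, with no clear summit. The highest mutant share, 55.1%, lay 1.75 kb upstream. The H3K4me3 share was 42.3% in water and 53.8% in mutant embryos at 10 kb upstream, and 37.2% in both at 10 kb downstream, with the highest values near the start in both. The water share was 98.7% at the start and 100% at 0.75 kb downstream, and the mutant share was 92.3% at the start and nowhere higher. At 2 kb upstream, 69.2% of the genes were under H3K4me3 in water and 80.8% in mutant embryos. Over all genes with a start, the H3K4me3 shares at that position were 38.8% and 44.3%, also higher in mutant embryos. Their H3K27ac share was highest at 0.25 kb downstream in both conditions, 37.2% in water and 29.9% in mutant embryos.

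**Figure D3:**
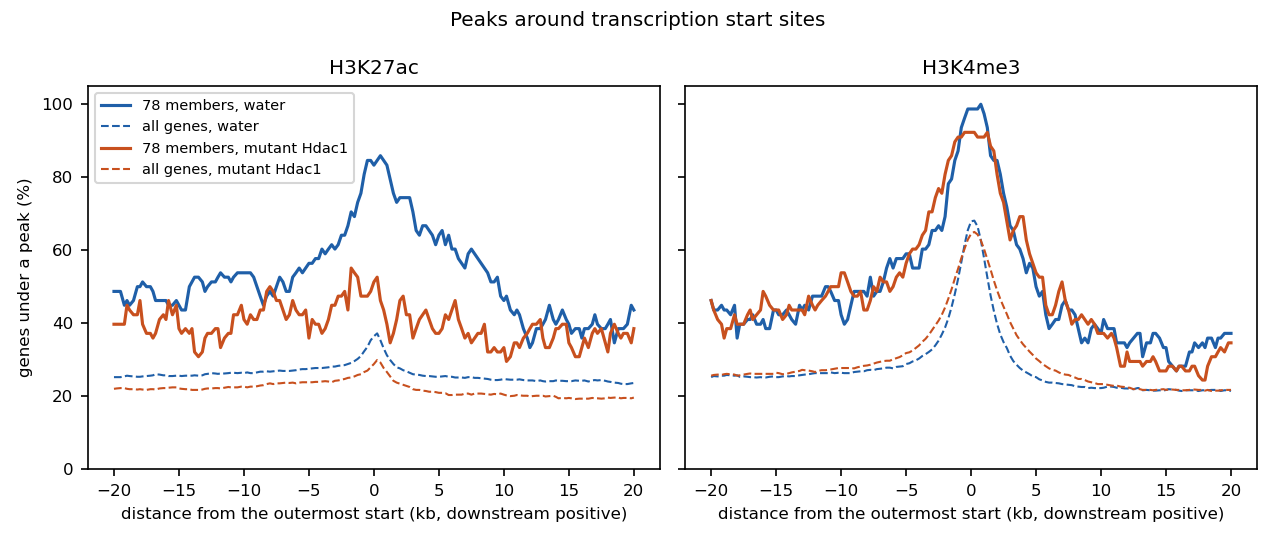
Share of genes (y axis, %) under an H3K27ac peak (left) or an H3K4me3 peak (right) by distance from the outermost listed start (x axis, kb), for 78 genes of the machinery (solid) and 16457 protein-coding genes (dashed) in water and mutant embryos. The solid H3K27ac curve has a summit of 85.9% in water embryos and runs between lower values without a clear summit in mutant embryos, whereas both H3K4me3 curves are highest within 1.25 kb of the start.

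The far ends of genes were also marked. For the 72 genes longer than 4 kb with a known strand, H3K27ac was within 2 kb of the start at 65 in water and 53 in mutant embryos, and within 2 kb of the other end at 49 and 41. Over 13375 such protein-coding genes, 50.3% and 49.3% had it at the start and 39.1% and 40.4% at the far end. H3K4me3 was at the start of 72 and 67 of these genes and at the far end of 44 and 37. Over all such genes it was at 79.4% and 76.3% of the starts and 41.1% and 40.3% of the far ends. H3K27ac at the far end alone was found at 5 of the 72 genes in water and 12 in mutant embryos, and at 1509 and 2088 of the 13375.

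The promoters beneath these peaks were inspected, and 6 are shown as genes where a mark was absent from the gene ends in mutant embryos or, at Polr2a, from the start base. The 250 bases before the outermost listed start were read from RefSeq (GRCm38.p6), 5′ to 3′ in the direction of transcription. Capitals mark matches, on either strand, to 6 motifs: the TATA box TATAAA, the CCAAT box, the GC box GGGCGG, the ETS site CCGGAAG, the NRF1 core TGCGCA and the YY1 site AAGATGGCG. The CCAAT box was searched as these 5 letters, and adjoining or overlapping matches run together.
Polr1b, chr2:129100746-129100995, plus strand: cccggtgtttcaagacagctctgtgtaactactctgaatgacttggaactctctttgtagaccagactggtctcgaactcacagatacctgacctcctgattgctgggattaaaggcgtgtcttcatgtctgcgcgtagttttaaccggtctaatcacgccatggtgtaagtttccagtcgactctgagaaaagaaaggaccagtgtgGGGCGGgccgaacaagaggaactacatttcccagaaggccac
Polr2a, chr11:69758634-69758883, minus strand: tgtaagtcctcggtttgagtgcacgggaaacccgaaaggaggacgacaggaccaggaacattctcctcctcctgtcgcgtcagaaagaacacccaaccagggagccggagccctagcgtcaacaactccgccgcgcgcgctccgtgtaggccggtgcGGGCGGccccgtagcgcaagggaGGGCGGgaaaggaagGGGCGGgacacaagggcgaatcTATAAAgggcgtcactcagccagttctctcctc
Tbp, chr17:15499638-15499887, plus strand: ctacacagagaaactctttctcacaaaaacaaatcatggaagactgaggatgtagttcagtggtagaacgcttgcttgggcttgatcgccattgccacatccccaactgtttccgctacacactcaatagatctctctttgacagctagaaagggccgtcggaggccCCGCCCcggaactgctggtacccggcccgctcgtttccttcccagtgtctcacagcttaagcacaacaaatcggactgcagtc
Gtf2b, chr3:142764997-142765246, plus strand: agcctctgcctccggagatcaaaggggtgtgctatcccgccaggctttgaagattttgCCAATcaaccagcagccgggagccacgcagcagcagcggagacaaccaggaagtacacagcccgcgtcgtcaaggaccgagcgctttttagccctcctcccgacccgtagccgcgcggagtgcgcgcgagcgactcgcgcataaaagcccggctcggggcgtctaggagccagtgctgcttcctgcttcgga
Gtf2a2, chr9:70012298-70012547, plus strand: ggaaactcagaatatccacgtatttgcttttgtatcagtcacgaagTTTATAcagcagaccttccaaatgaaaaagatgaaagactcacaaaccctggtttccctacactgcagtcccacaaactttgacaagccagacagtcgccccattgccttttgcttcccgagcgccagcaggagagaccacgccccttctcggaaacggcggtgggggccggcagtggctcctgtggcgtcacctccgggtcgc
Gtf2e1, chr16:37539790-37540039, minus strand: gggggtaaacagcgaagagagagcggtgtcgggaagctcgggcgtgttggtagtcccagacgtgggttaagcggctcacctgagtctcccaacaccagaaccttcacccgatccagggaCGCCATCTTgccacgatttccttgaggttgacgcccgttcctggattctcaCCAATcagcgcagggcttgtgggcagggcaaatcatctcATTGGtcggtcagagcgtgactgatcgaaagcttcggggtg

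The Polr2a promoter holds 3 GC boxes, the last 55 bases before the start, and a TATA box 33 bases before it. Of these 6 promoters, that of Gtf2a2 also has TATAAA letters, on the other strand and 204 bases before the start. Over the 78 genes the TATAAA letters occurred in 12.8% of the promoters, against 12.5% of all 16457. The GC box occurred in 57.7% against 43.6%, the CCAAT box in 32.1% against 36.3%, the ETS site in 24.4% against 9.39%, the NRF1 core in 21.8% against 8.34% and the YY1 site in 2.56% against 0.674%. The median ratio of observed to expected CpG was 0.828, and 0.556 over all genes. Among the 35 genes whose start stayed under H3K27ac and the 30 whose start did not, the median CpG ratios were 0.8 and 0.864. The NRF1 core was found in 9 of the 35 and 3 of the 30, and TATAAA in 1 of the 35 and 6 of the 30. The other motifs were found at similar shares: the GC box in 19 and 18, the ETS site in 9 and 9, the CCAAT box in 9 and 9 and the YY1 site in 1 and 1. These counts are small and carry no test.

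RNA polymerase subunit genes mostly had less H3K27ac coverage in mutant embryos. Of 28 subunit genes, 24 had less coverage in mutant embryos, 3 had more and 1 was equal, and the ratio of covered bases was 0.556. All 28 had water H3K27ac, and over all such genes 67.4% had less and the ratio was 0.732. For polymerase I, Polr1b encodes the second-largest subunit (chromosome 2, 129100970 to 129128060). Its windows were wholly covered by H3K27ac in water embryos (8002 bp) and not at all in mutant embryos, while H3K4me3 covered 3788 and 3992 bp. No mutant peak overlapped any base of its 13317 bp water peak (129098535 to 129111851). Polr1e, an associated subunit, had 7554 bp of H3K27ac in water and 1245 bp in mutant embryos. Polr1a, which encodes the largest subunit (chromosome 6, 71909053 to 71979435), went the other way. Its H3K27ac coverage was 459 bp in water and 2018 bp in mutant embryos, and its H3K4me3 coverage was 2988 and 180 bp. Within the windows of Polr1a, H3K27ac lay at the far end in water and at the start in mutant embryos, and H3K4me3 the reverse. Further into the gene both lists held peaks of each mark. The widest mutant H3K27ac peak (71910962 to 71915897) was covered to 93.1% by water H3K27ac, and the widest water H3K4me3 peak (71910978 to 71915411) to 98.0% by mutant H3K4me3. Of the subunits shared by polymerases I and III, Polr1c had 5746 and 382 bp of H3K27ac and Polr1d had 2224 and 941 bp in water and mutant embryos.

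All 8 genes of subunits counted here under polymerase II alone had less H3K27ac coverage in mutant embryos, with a ratio of 0.535. All 8 had water H3K27ac, and over all such genes 67.4% had less and the ratio was 0.732. Polr2a encodes the largest subunit, which carries the heptad-repeat tail (chromosome 11, 69733997 to 69758633). Its H3K27ac coverage was 5213 bp in water and 1849 bp in mutant embryos, from widest peaks of 8261 and 2497 bp. The mutant peak (69758785 to 69761281) lay wholly upstream of the gene. Over the same gene H3K4me3 covered 4625 and 4001 bp, and its widest peak measured 9964 bp in water and 21574 bp in mutant embryos. A covered length of 4001 bp is that of 1 full window. Polr2b, the second-largest subunit, differed little, with H3K27ac coverage of 4001 and 3839 bp and H3K4me3 coverage of 4001 and 4355 bp. Polr2i and Polr2c had 5314 and 660 bp of H3K27ac in water embryos and none in mutant embryos. Polr2d and Polr2g were both wholly covered in water embryos and had 7229 and 4001 bp in mutant embryos. Among the 5 subunits shared by all 3 polymerases, Polr2h had the largest difference, with 8002 bp of H3K27ac in water and 2126 bp in mutant embryos, while its H3K4me3 coverage was 5866 and 8002 bp. Polr2k was nearly equal, with 5587 and 5718 bp of H3K27ac.

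The 10 polymerase III genes all had H3K27ac and H3K4me3 in both lists. Polr3a, the largest subunit, had 4001 bp of each mark in each condition, so the full window at 1 end was covered throughout, although its widest H3K27ac peak measured 22474 bp in water and 13228 bp in mutant embryos. Polr3b, the second-largest subunit, had 4001 and 3857 bp of H3K27ac and 4001 bp of H3K4me3 in both. Polr3k had the least H3K27ac of the 10 in mutant embryos, with 3157 bp in water and 426 bp in mutant embryos. Polr3gl was the only one of them with more in mutant embryos, 3233 bp against 2194 bp. Its widest mutant H3K27ac peak lay at the far end, and its start base was under H3K27ac in water embryos alone.

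TFIID held 9 of the 30 starts that were under H3K27ac in water embryos alone. Of 12 Tbp and Taf genes with a listed start, 11 had H3K27ac over the start base in water embryos and 2 in mutant embryos. The 2 were Taf3 and Taf12. Those covered in water alone belonged to Tbp, Taf5, Taf6, Taf8, Taf9, Taf10, Taf11, Taf13 and Taf15, and the start of Taf4 was under H3K27ac in neither. All 12 starts were under H3K4me3 in both conditions. Outside TFIID, 54 of 66 starts were covered by H3K27ac in water and 38 in mutant embryos. Of the 54, 21 were covered in water alone, and 5 other starts were covered in mutant embryos alone. Over all genes 49.5% of the starts covered in water embryos were without a mutant peak. TFIID was 1 of 14 groups compared, and the difference between it and the other groups was not tested. When a peak within 500 bp of the start was accepted, TFIID had 11 starts in water and 5 in mutant embryos, so at 3 genes a mutant peak lay just beside the start.

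Tbp encodes the subunit that binds the TATA box and is used by all 3 polymerases (chromosome 17, 15499888 to 15517427). Its water H3K27ac peak measured 13866 bp (15498006 to 15511871) and covered 3883 bp of the windows, and in mutant embryos no peak reached the windows. Mutant peaks covered 43.6% of that water peak, further inside the gene. H3K4me3 covered 4001 bp in each condition, from peaks of 6423 bp in water and 7033 bp in mutant embryos. The windows of Tbp meet those of its neighbour Psmb1. Taf15, an RNA-binding protein found with part of TFIID, had 6771 bp of H3K27ac in water and none in mutant embryos, and 4269 and 6090 bp of H3K4me3. Taf6, a histone-fold subunit, had less of both marks in mutant embryos, with 8002 and 4275 bp of H3K27ac and 7309 and 4001 bp of H3K4me3. In the opposite direction, Taf12 had 4036 bp of H3K27ac in water and 6972 bp in mutant embryos, and Taf5, a WD-repeat subunit, had 4535 and 6437 bp. Taf4 had no H3K27ac peak in water embryos and a mutant peak that overlapped the windows by 701 bp, at the far end of the gene.

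Among the remaining general factors of polymerase II, H3K27ac coverage was smaller in mutant embryos at 8 of the 13 genes of TFIIA, TFIIB, TFIIE, TFIIF and TFIIH and larger at 5, and the ratio of covered bases was 0.837. All 13 had water H3K27ac, and 8 of 13 is near the 67.4% over all such genes. Gtf2b encodes TFIIB, which bridges TFIID and the polymerase (chromosome 3, 142765247 to 142783606). It had little H3K27ac in water embryos, 2 peaks covering 997 bp, and none in mutant embryos, while H3K4me3 covered 3418 and 4065 bp. Its widest H3K4me3 peak measured 4702 bp in water and 19187 bp in mutant embryos. The genes without H3K4me3 in mutant embryos were both in this group. Gtf2e1, the large subunit of TFIIE (chromosome 16, 37509796 to 37539789), had 4052 bp of H3K4me3 in water embryos and none in mutant embryos within 2 kb, while H3K27ac covered 6942 and 7432 bp. Gtf2a2, the small subunit of TFIIA (chromosome 9, 70012548 to 70022866), had a single water H3K4me3 peak of 1730 bp, the narrowest widest peak of the 91 genes in that list, and none in mutant embryos. Its H3K27ac coverage was 109 and 525 bp. The nearest mutant H3K4me3 peaks lay 3347 bp from Gtf2e1 and 2626 bp from Gtf2a2. These 2 of 91 genes are 2.2% (interval 0.267 to 7.71) of those with water H3K4me3, against 8.14% over all genes. No gene could gain H3K4me3, since none lacked it in water embryos, while 20.8% of all genes without it in water embryos had a mutant peak.

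Gtf2f1, the large subunit of TFIIF (chromosome 17, 57003401 to 57011394), showed opposite differences in the 2 marks. H3K27ac covered 4001 bp in water and 705 bp in mutant embryos, and H3K4me3 covered 2660 and 7204 bp, the largest positive difference of H3K4me3 among the 91 genes. These differences lay partly at different ends. H3K27ac was at the start in water and at the far end in mutant embryos, where the widest mutant H3K4me3 peak also lay. Around the start only, the differences, mutant minus water, were -4001 bp for H3K27ac and 1070 bp for H3K4me3. The windows of Gtf2f1 meet those of Pspn. In the TFII-I family, whose proteins act at selected promoters, Gtf2ird2 had 8002 bp of H3K27ac in water and 778 bp in mutant embryos and 5892 and 3839 bp of H3K4me3. Gtf2ird1 had nearly equal H3K27ac coverage, 3673 and 3561 bp, and 4223 and 6260 bp of H3K4me3.

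All 7 polymerase III factor genes carried both marks in both lists. Gtf3a encodes TFIIIA, which binds the 5S RNA gene (chromosome 5, 146948657 to 146955614). It had less of both marks in mutant embryos, with 8002 and 3879 bp of H3K27ac and 3900 and 604 bp of H3K4me3. Gtf3c6 had 8002 and 1262 bp of H3K27ac, but 8002 bp of H3K4me3 in each condition. Gtf3c5, another TFIIIC subunit, had the largest positive difference of H3K27ac among the 91 genes, with 2957 bp in water and 6889 bp in mutant embryos and 4001 bp of H3K4me3 in both. Thus 6 of the 7 genes had less H3K27ac coverage in mutant embryos and 1 had more, and the ratio of covered bases was 0.668. Over all genes with water H3K27ac 67.4% had less and the ratio was 0.732. With 7 genes this difference carries no test.

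Of 26 Mediator genes, 15 had less H3K27ac in mutant embryos and 11 had more, and the ratio of covered bases was 0.801. The 15 are among the 24 Mediator genes with water H3K27ac, a share near the 67.4% over all such genes. The ratio for H3K4me3 was 0.922, and that of the polymerase subunit genes 1.01. The head, which contacts the polymerase, had less at 7 of 8 genes. The exception was Med18, with 6461 bp in water and 7115 bp in mutant embryos. Med17, a scaffold of the head (chromosome 9, 15260351 to 15279906), had 7724 bp in water and none in mutant embryos, with 4001 and 4502 bp of H3K4me3. The middle had more H3K27ac coverage in mutant embryos at 5 of 8 genes, against 32.7% over all genes. Among the 5 were Med21, with 4271 and 6714 bp, and Med4, with none and 2427 bp. Med26, also among them, was nearly equal, with 3950 and 4001 bp. Peak width went mostly the other way. Of the 7 middle genes with H3K27ac in both lists, 5 had the narrower widest peak in the mutant list and 2 the wider one. Med7 had 100 and 1877 bp of H3K27ac, but 3946 and 976 bp of H3K4me3, and the mutant list had no H3K4me3 peak over its start. Med1 had 5817 and 5620 bp of H3K27ac. In the tail, which binds activators, Med15 (chromosome 16, 17651208 to 17722947) differed little, with 3507 and 3179 bp of H3K27ac and 4859 and 4001 bp of H3K4me3. All 3 tail genes with a listed start kept H3K27ac over it, as did 3024 of 5989 starts covered in water embryos over all genes. Of the 4 genes between head and tail, Med29 had 5857 and 325 bp of H3K27ac, Med28 had 2669 bp and none, Med27 had 5429 and 5711 bp and Med30 had none and 57 bp. Med13, the only kinase module gene that the symbol rule takes in, had 4001 and 4351 bp. Its start base was under H3K27ac in water embryos alone.

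**Figure D4:**
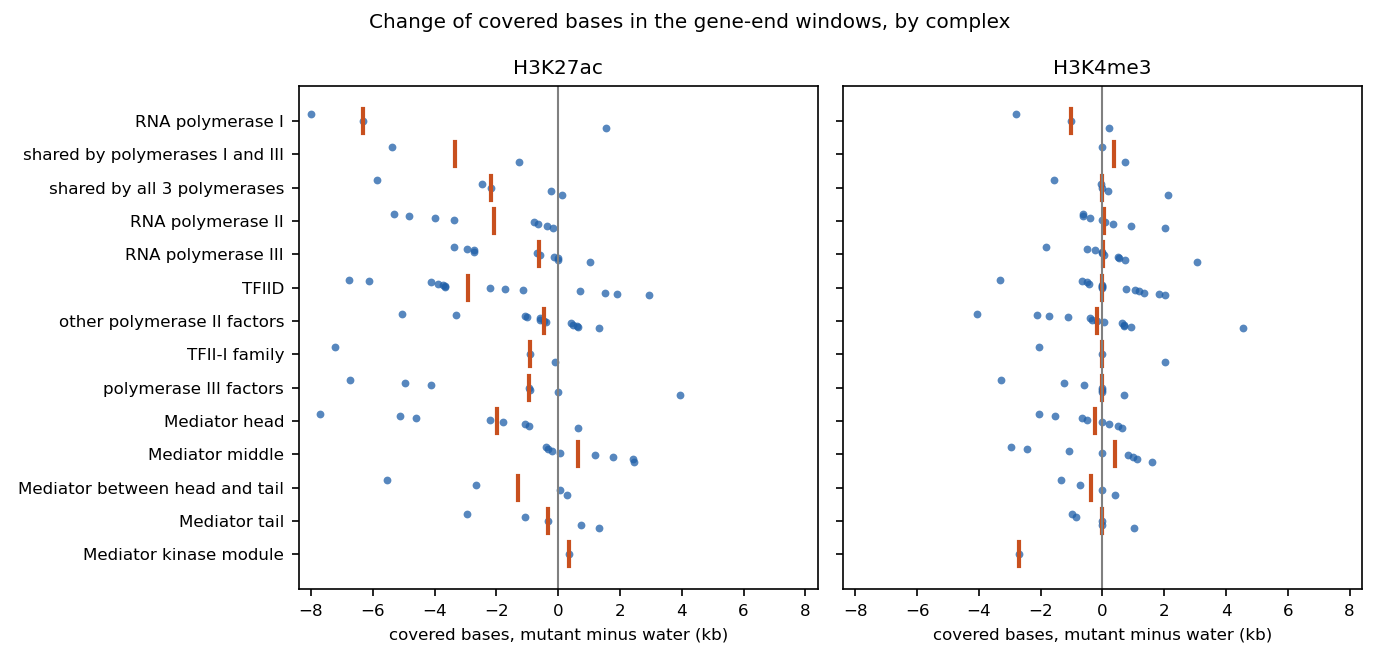
Covered bases in the gene-end windows, mutant minus water (x axis, kb), for H3K27ac (left) and H3K4me3 (right), with 1 point for each of the 91 genes and an orange bar at the median of each complex. H3K27ac points lie left of 0 at 24 of 28 polymerase genes, 10 of 14 TFIID genes and 15 of 26 Mediator genes, and H3K4me3 medians lie near 0 in most complexes.

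Less sequence carried both marks in mutant embryos. In the windows of the 91 genes, 370 kb were under both marks in water and 216 kb in mutant embryos. This was 82.3% and 49.4% of the H3K4me3 bases. Over all genes, the shares of H3K4me3 bases also under H3K27ac were 52.9% and 39.9%. Of the H3K27ac bases of the machinery, 81.9% in water and 71.3% in mutant embryos also had H3K4me3, against 75.9% and 68.8% over all genes. By gene, 78 of the 88 genes with both marks in water embryos kept this state in the mutant list, against 76.8% of all genes with both, whereas 8 carried only H3K4me3 there and 2 only H3K27ac.

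Many windows are shared with other genes. The windows of 66 of the 91 genes (72.5%) met those of another protein-coding gene, so a peak cannot always be given to 1 gene, although no peak was the widest of more than 1 of the 91 genes. Among the 25 genes without such a neighbour, the ratio of H3K27ac coverage was 0.848 and that of H3K4me3 0.947. Over all 11647 protein-coding genes without one, the ratio was 0.947 for H3K27ac and 1.05 for H3K4me3. H3K27ac marked 23 of these 25 genes in each condition, and 16 had less coverage in mutant embryos and 9 more. Among the 23 with water H3K27ac the ratio was 0.84, and 16 had less. Of 5066 protein-coding genes with water H3K27ac and no such neighbour, 3439 had less, with a ratio of 0.736. Among genes that stand alone, the H3K27ac ratio of the machinery was thus lower than that of all genes. Among those with water H3K27ac it was higher instead. The part of neighbouring genes in the result was not tested.

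Genes of the same machinery outside the rule were also examined. The 3 further polymerase I subunit genes listed under other symbols, Twistnb, Cd3eap and Znrd1, had both marks in both lists and less H3K27ac coverage in mutant embryos. Of 33 further genes of the pathway, such as the TFIIH kinase gene Cdk7, the elongation kinase gene Cdk9 and the polymerase III factor gene Brf1, 31 had H3K27ac in water and 30 in mutant embryos, with 3 marked in water alone and 2 in mutant embryos alone. H3K4me3 marked 33 and 32 of them. Their H3K27ac coverage was smaller in mutant embryos at 20 genes and larger at 12, a ratio of 0.784. The 20 of 31 with water H3K27ac are near the share over all such genes, 67.4%, whose ratio was 0.732. On the X chromosome, which the rule leaves out, Taf1, the largest TFIID subunit, had 8002 bp of H3K27ac in water and none in mutant embryos, and Med12 of the kinase module had 2475 bp and none. Med14, the Mediator scaffold, had 4001 and 1171 bp of H3K27ac and 4001 bp of H3K4me3 in water and none in mutant embryos. Among paralogues with a letter after the digits, Med12l and Med13l had no H3K27ac in water embryos and 2609 and 3080 bp in mutant embryos. Taf1b, part of the polymerase I selectivity factor, had 4001 bp and none.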

How the data were processed

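The authors deposited their peak calls as 4 lists, and each list stands for the libraries of an immunoprecipitation group. The deposited values are other than a signal: chromosome, start and end, with no score per peak. Per the submitters' processing notes, CASAVA, Trimmomatic, Bowtie2, SAMtools, Picard, MACS2 and deepTools were used with builds mm10 and GRCm38. Their settings and the pooling of libraries are not given in the sources used here. Sample groups came from the titles.

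Lists were read with Python 3.11.15, numpy 2.4.6 and pandas 2.3.3. Genes came from a RefSeq table of GRCm38.p6, and start sites, strands and promoters from a RefSeq promoter table, which held 78 of the 91 genes. For each gene the peaks, covered bases and widest peak within 2 kb of both ends were computed, with an overlap of at least 1 bp. The overlap code was tested on simulated peaks. Shares have exact Clopper-Pearson intervals at 95% (scipy 1.17.1). With 1 list per group no test was made.

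Genes named in the text are fixed subunits (the 2 largest of each polymerase, Tbp, Gtf2b, Med1, Med15), all genes marked by H3K4me3 in 1 condition only, the 4 largest positive and negative differences of coverage for each mark, the 2 widest peaks of each list, and genes marked by H3K27ac in 1 condition only. 1 gene named by this rule is not reported here. Others serve as examples and were chosen after their values were seen. The members and lists were chosen with earlier results of these data known. Alternatives covered windows, overlap, list length, joining of peaks and the member rule.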

Additional observations from a re-analysis of the deposited data

How the results depend on the processing

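No paired analysis was possible because the 2 libraries of a group share 1 deposited list, and for that reason leaving out a library in turn was not run. The lists hold no score, so the wider 50% of each list stood in for a stricter threshold. The settings for start bases and TFIID were added after seeing the data. Of the recomputed counts and ratios that answer a comparison, 222 stayed within 1.5 times the main count or 1.1 times the main ratio, and 14 did not. Of the recomputed coverage differences of single named genes, 324 stayed within 1.5 times the main value and 136 did not. Some changed sign. That of H3K27ac at Gtf2e1 was 490 bp as reported, -3659 bp with windows of 5 kb and -411 bp with start sites only. At Med1 it was -197 bp as reported and 803 bp with windows of 1 kb. At Polr2a the H3K4me3 difference was -624 bp as reported and 973 bp with windows of 5 kb. The number of genes with H3K27ac in water embryos alone, 8 as reported, was 1 with windows of 5 kb and 15 with windows around start sites only. The number with H3K27ac in mutant embryos alone, 3 as reported, was 1 with windows of 5 kb, 5 with an overlap of at least 500 bp and 5 with letter-suffix genes added. The number that lost H3K4me3, 2 as reported, was 5 with windows of 1 kb, 0 with windows of 5 kb, 5 with start sites only and 5 in the wider 50% of each list. With start sites only, where 78 genes enter, the ratio of H3K27ac coverage was 0.588, 11 genes had more H3K27ac coverage, 8 had a wider H3K27ac peak and 19 had less H3K4me3 coverage. With a peak accepted within 500 bp, 5 TFIID starts had H3K27ac in mutant embryos, against 2 under the start base. The ratio of H3K27ac coverage lay between 0.588 and 0.717 under these alternatives, and that of H3K4me3 between 0.957 and 0.990. The 25 genes without a neighbouring gene lay outside both ranges, with 0.848 and 0.947. Counts of genes marked in 1 condition only thus depend on the window, and some also on the overlap, the share of peaks used and the member rule. The depth is unknown and limits what a missing peak shows.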
